A study of Mus musculus with 6 samples.

Results

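The mitochondrial genome of the mouse was examined as 1 group of 37 genes, chosen as every gene on chromosome MT whose symbol starts with mt-, out of 54532 genes in the count table. The group holds 13 genes for proteins, 2 genes for ribosomal RNA (rRNA) and 22 genes for transfer RNA (tRNA). All 37 have the same identifiers, coordinates and strand in GENCODE release M21 (GRCm38). RNA came from marrow cells selected with CD8 microbeads, taken from female mice of the F1 hybrid CByB6F1 at 2 to 5 months of age. All mice had immune bone marrow failure (BMF), a model in which lymphocytes attack the blood-forming marrow. Mice of ruxolitinib pools 1 to 3 were given ruxolitinib, which blocks the kinases JAK1 and JAK2, and those of control pools 4 to 6 had BMF without the drug. One library was made per pool, with 2 to 3 mice in each pool, so the spread is between pools and differences between single mice are not visible.

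Mitochondria keep a small circular genome that is copied into long RNAs from both strands, and these are cut at the tRNAs into messengers, rRNAs and tRNAs. The encoded proteins are core subunits of respiratory complexes I, III, IV and V, which are completed with many subunits encoded in the nucleus. Transcription by the polymerase Polrmt, packaging by Tfam, cutting, decay and translation all depend on nuclear genes. In T cells mitochondrial output is known to follow activation and metabolic state, and maturing red cells discard their mitochondria.

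Of the 13 protein genes 8 were higher in the ruxolitinib libraries, 1 was lower, 3 did not pass the test and 1 had too few counts to be tested. The gene for cytochrome c oxidase subunit 1, mt-Co1, rose 5.90-fold and stood highest of all 37 genes per base of gene in the ruxolitinib libraries. The 2 rRNAs did not pass the test. Of the tRNAs, mt-Tn and mt-Tc fell, mt-Tp rose, mt-Tw did not pass the test, and 18 were not tested. Levels are in CPM, read counts scaled to library size with the TMM factors of edgeR. Changes are log2 fold changes of ruxolitinib over control ± SE, with p-values from edgeR's quasi-likelihood test, Benjamini-Hochberg adjusted over all 13480 genes tested, and a gene was called at an adjusted p under 0.05. Across all these genes 55.2% were called, 29.9% higher and 25.3% lower. Among the 18 tested mitochondrial genes 9 were higher (50%) and 3 lower (16.7%), with a median log2 change of 0.66 against 0.03 for all genes tested. These 9 lay above all controls in every ruxolitinib pool and these 3 below, and the other 6 overlapped, against 35.7% above and 30.3% below over all genes. With libraries scaled to CD8 identity genes, under which 69.7% of all genes were higher and 0.527% lower, 13 mitochondrial genes were higher and 0 lower. With scaling to mitochondrial housekeeping genes (48.4% higher and 9.91% lower over all genes) 10 were higher and 1 was lower. A 2-fold minimum in the test left 4 higher (mt-Co1, mt-Nd4, mt-Nd5 and mt-Nd4l) and 1 lower (mt-Tn).

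The 3 tRNAs that were called are shown because they stand on the same strand and moved in opposite directions, with the anticodon of each in capitals. They are printed as DNA, 5′ to 3′ along the minus strand of chromosome MT (GRCm38, GENCODE M21), from 5089 to 5159 for mt-Tn (asparagine), 5192 to 5257 for mt-Tc (cysteine) and 15356 to 15422 for mt-Tp (proline).
mt-Tn: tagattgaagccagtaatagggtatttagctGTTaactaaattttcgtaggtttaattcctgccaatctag
mt-Tc: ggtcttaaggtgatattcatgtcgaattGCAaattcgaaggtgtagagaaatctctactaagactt
mt-Tp: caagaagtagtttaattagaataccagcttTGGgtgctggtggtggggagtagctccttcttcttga

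A second set of sequences decides which genes can be read. A stretch of MT from 6390 to 11042 (4653 bases) has a near-identical copy in the nuclear genome on chromosome 1 from 24611535 to 24616188 (4654 bases, minus strand, GRCm38), a nuclear insertion of mitochondrial DNA. In the 7 annotated pseudogenes of the copy, 4140 aligned bases held 2 substitutions, counted from 1 at the first base of the mitochondrial gene with the gene's base first: A1066T in mt-Co1 and T3C in mt-Nd3. The pseudogenes are spaced as the mitochondrial genes are, except for 74 bases in place of 73 between mt-Nd3 and mt-Nd4l, and the sequence between them was not compared. The stretches around both are shown with the differing base in capitals, mt-Co1 from MT 6390 to 6423 beside Gm29216 (chromosome 1, 24616155 to 24616188) and mt-Nd3 from MT 9459 to 9491 beside Gm28438 (chromosome 1, 24613087 to 24613119).
mt-Co1: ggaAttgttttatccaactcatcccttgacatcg
Gm29216: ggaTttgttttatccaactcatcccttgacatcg
mt-Nd3: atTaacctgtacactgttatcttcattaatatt
Gm28438: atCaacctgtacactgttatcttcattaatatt

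The protein genes mt-Co2, mt-Atp8, mt-Atp6, mt-Co3, mt-Nd3 and mt-Nd4l lie wholly inside this copy, as do 5 tRNA genes. The last 483 of the 1545 bases of mt-Co1 and the first 876 of the 1378 bases of mt-Nd4 also lie in it. Of all stretches of 50 bases in mt-Co2, 100% also occur in an annotated nuclear transcript, as do 99.5% in mt-Atp6, 99.9% in mt-Co3, 98.0% in mt-Nd3 and 98.8% in mt-Nd4l. The share was 62.2% for mt-Nd4, 51.1% for mt-Co1, 8.19% for mt-Nd2, 7.61% for mt-Nd5 and 0% for mt-Nd1, mt-Nd6, mt-Cytb and mt-Rnr1. No annotated transcript covers the copy of mt-Atp8. A read from a shared stretch cannot be placed by its sequence, and the sources used here do not give how the authors counted such reads. The 5 genes with counts enough to test and wholly inside the copy had 86 to 9458 counts over the 6 libraries, against 48523 to 524661 for the 7 protein genes not wholly inside it. Results for mt-Co2, mt-Atp6, mt-Co3, mt-Nd3 and mt-Nd4l are therefore uncertain. The same holds for mt-Nd4 in the part inside the copy and for mt-Co1 in all its shared stretches. Those of mt-Co1 occur in Gm29216 of the copy and also in Gm11512 and in Gm13340 on chromosome 2. Gm13340 had 65, 41 and 80 counts in ruxolitinib pools 1 to 3 and 12, 9 and 8 in control pools 4 to 6. Stretches of mt-Co2 also occur in Gm13341 and some of mt-Nd2 in Gm13339, both on chromosome 2.

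The libraries held 13829808 to 17708196 counts, and the 7 protein genes not wholly inside the copy rest on 2341 to 163175 counts in each library. The CD8 label was checked against marker genes. All 17 listed T cell and CD8 markers were detected in both groups, with a summed level of 1894 to 5387 CPM in the ruxolitinib and 10498 to 12903 CPM in the control libraries, and 15 of 17 were lower. All 13 measured erythroid markers were higher, with sums of 125000.0 to 245057 CPM against 1868 to 2693 CPM, and Slc6a9 was at 0 in the controls. All 12 monocyte and macrophage markers were higher (8786 to 14514 CPM against 1150 to 1546 CPM), as were 7 of 10 granulocyte markers, with 1 lower (8505 to 19588 CPM against 1559 to 5999 CPM). Of 8 dendritic cell markers 4 were higher and 2 lower (2418 to 2701 CPM against 1303 to 1464 CPM), with Siglech and Flt3 at 0 in the controls. Most of that sum was Cd74, at 1894, 1975 and 2011 CPM against 800, 691 and 688 CPM. Over all genes tested 29.9% were higher and 25.3% lower. Erythroid, monocyte and macrophage and most granulocyte markers thus moved with the comparison, while dendritic cell markers were mixed. The part of other marrow cells in the differences below was not tested. In such bulk samples fewer cells of a type and less RNA per cell cannot be told apart.

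Of the complex IV subunits, mt-Co1 (ENSMUSG00000064351, MT 5328 to 6872, plus strand) encodes the catalytic subunit of cytochrome c oxidase. It was measured at 11940, 9778 and 9181 CPM in ruxolitinib pools 1 to 3 and at 2490, 1826 and 919 CPM in control pools 4 to 6. The lowest ruxolitinib pool lay well above the highest control pool. The change was 2.56 ± 0.39 (adjusted p = 0.000535, edgeR), and the call held in all 21 alternative analyses, with changes from 2.24 to 4.63. Summing mt-Co1 with Gm29216 alone, an alternative added after the counts were seen, gave 2.53.

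The other complex IV genes, mt-Co2 and mt-Co3, lie wholly inside the nuclear copy. The level of mt-Co2, which takes electrons from cytochrome c, was 82.9, 96.2 and 69.0 CPM under ruxolitinib and 55.8, 70.0 and 51.9 CPM in controls, with ruxolitinib pool 3 just under control pool 5 (0.48 ± 0.21, adjusted p = 0.0775, edgeR). It was called higher with scaling to CD8 identity genes, with scaling to mitochondrial housekeeping genes and with quality weights. The level of mt-Co3 was 46.8, 44.1 and 37.4 CPM under ruxolitinib and 58.0, 24.4 and 387.9 CPM in controls. Control pool 6 alone stood high, and the estimate of -1.87 ± 0.80 (adjusted p = 0.0705, edgeR) became 0.04 without it. Without control pool 4 or pool 5 it was called lower (adjusted p = 0.0301 and 0.00627, edgeR).

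Complex III has a single mitochondrial subunit, cytochrome b, encoded by mt-Cytb (ENSMUSG00000064370, MT 14145 to 15288, plus strand), a gene with no 50-base stretch in an annotated nuclear transcript. Its level was 3819, 3560 and 2993 CPM under ruxolitinib and 1523, 1399 and 1020 CPM in controls. The groups did not overlap, and within each group the pools kept close, at 1.28 and 1.49 times from lowest to highest. The change was 1.40 ± 0.27 (adjusted p = 0.00190, edgeR).

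The mitochondrial genome encodes 7 complex I subunits, and they did not move as one. The genes mt-Nd4 and mt-Nd5 encode proton-pumping subunits of the membrane arm. The level of mt-Nd4 (MT 10167 to 11544) was 1822, 1612 and 1285 CPM under ruxolitinib and 628, 480 and 427 CPM in controls (1.62 ± 0.26, adjusted p = 0.00077, edgeR). The level of mt-Nd5 (MT 11742 to 13565) was 999.7, 798.7 and 893.8 CPM against 173, 153 and 296 CPM (2.11 ± 0.30, adjusted p = 0.000373, edgeR). Both genes were higher in every ruxolitinib pool than in any control pool, and both calls held in all 21 alternatives.

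The genes at the start of the plus-strand messengers, mt-Nd1 and mt-Nd2, changed less. The level of mt-Nd1 (MT 2751 to 3707), which lies at the joint of the membrane and matrix arms, was 2593, 2589 and 2154 CPM under ruxolitinib and 1589, 1593 and 1291 CPM in controls (0.71 ± 0.24, adjusted p = 0.0311, edgeR). The level of mt-Nd2 (MT 3914 to 4951), a further pumping subunit, was 1390, 1277 and 1058 CPM against 552, 546 and 843 CPM (0.94 ± 0.27, adjusted p = 0.0136, edgeR). Neither gene overlapped between groups, but both calls were fragile. The call of mt-Nd1 was lost without each of 5 pools (ruxolitinib 1 and 2, control 4, 5 and 6; adjusted p = 0.0505 to 0.0941, edgeR) and with no filter on low counts (0.0724). The call of mt-Nd2 was lost without ruxolitinib pool 1 (0.0503) or control pools 4 (0.0600) or 5 (0.0737).

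The only protein gene on the minus strand is mt-Nd6 (MT 13552 to 14070), a membrane subunit of complex I. Its level was 619, 589 and 504 CPM under ruxolitinib and 444, 614 and 1342 CPM in controls, with no call (-0.49 ± 0.38, adjusted p = 0.297, edgeR). The groups overlapped, control pool 6 stood highest, and without it the estimate was 0.10. The sources used here do not give whether the counting used strand, so RNA of mt-Nd6 and of the opposite strand over the same bases cannot be told apart.

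The short complex I genes mt-Nd3 and mt-Nd4l had few counts and lie wholly inside the nuclear copy. The level of mt-Nd3 was 3.44, 3.50 and 2.65 CPM under ruxolitinib and 6.15, 6.80 and 10.6 CPM in controls (-1.29 ± 0.34, adjusted p = 0.00907, edgeR). It was the only protein gene called lower, and summed with its copy Gm28438 it lost the call (-0.55, adjusted p = 0.179, edgeR). It also lost it with scaling to housekeeping genes (-0.63, adjusted p = 0.165, edgeR) and stood at 0.63 with scaling to CD8 identity genes. The level of mt-Nd4l was 2.12, 1.52 and 1.58 CPM against 0.055, 0.52 and 0.19 CPM (2.77 ± 0.68, adjusted p = 0.00691, edgeR), from 29, 20 and 25 counts against 1, 8 and 3.

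For complex V, the ATP synthase, mt-Atp6 encodes the membrane subunit beside the rotor. Its level was 37.8, 38.5 and 27.3 CPM under ruxolitinib and 18.3, 17.6 and 10.5 CPM in controls, with no overlap (1.16 ± 0.27, adjusted p = 0.00514, edgeR). It lies inside the nuclear copy. The neighbour mt-Atp8 had 6 counts in ruxolitinib pool 2, 1 in pool 3 and 0 in the other libraries, and was not tested. The genes share 43 bases, shown as capitals in the first 63 bases of mt-Atp6 (MT 7927 to 7989, plus strand, GRCm38), and a read there belongs to both.
mt-Atp6 start: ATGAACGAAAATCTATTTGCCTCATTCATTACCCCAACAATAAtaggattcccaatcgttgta

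**Figure D1:**
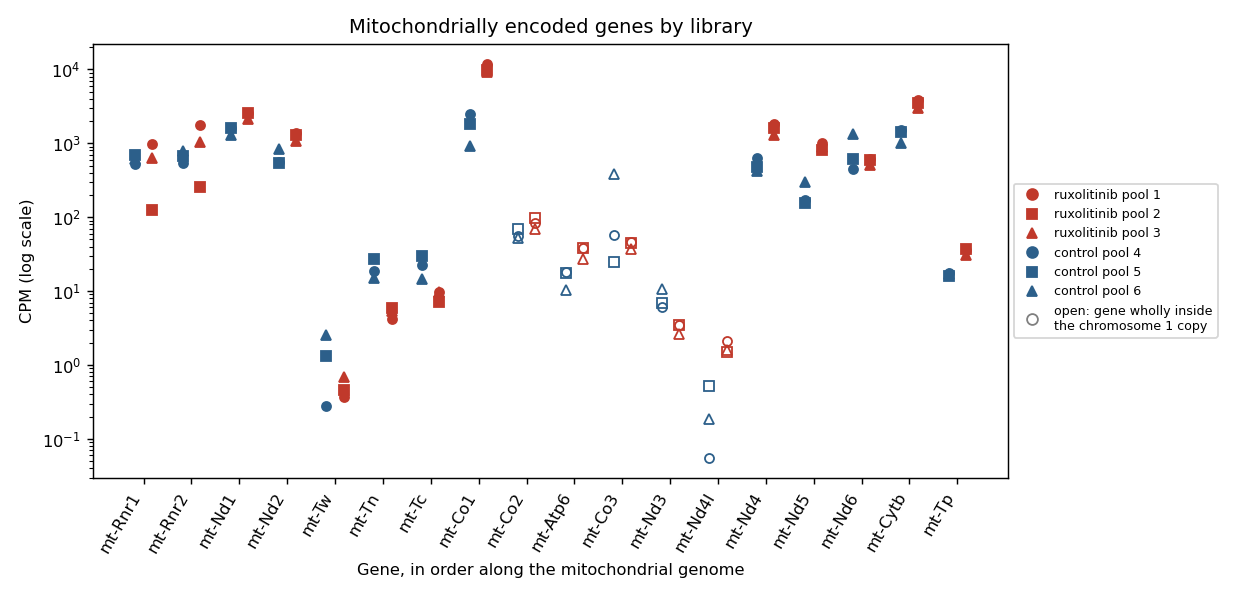
Level in CPM, on a log axis, of the 18 tested mitochondrial genes in each of the 6 libraries, in order along the genome. Red marks are ruxolitinib pools and blue marks control pools, circles are pools 1 and 4, squares 2 and 5 and triangles 3 and 6, and open marks are genes wholly inside the chromosome 1 copy. The red marks of mt-Co1, mt-Nd4, mt-Nd5 and mt-Cytb lie above the blue ones, those of mt-Tn and mt-Tc below, and ruxolitinib pool 2 stands low for both rRNAs.

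The copy's pseudogenes were also counted. The counts of Gm28661, which matches mt-Co2 at every aligned base, were 1051, 1122 and 1008 under ruxolitinib and 1114, 1263 and 1282 in controls, beside 1133, 1265 and 1092 and 1008, 1070 and 833 for mt-Co2 itself. The copy took 47.7% of the summed counts of that pair under ruxolitinib and 55.7% in controls. For mt-Atp6 and Gm10925 the copy took 49.7% and 51.5%, and for mt-Co3 and Gm28437 it took 47.4% under ruxolitinib and 10.9% in controls. The controls' low share rests on the 6227 counts of mt-Co3 in control pool 6, beside 282 of Gm28437 there. For mt-Nd3 and Gm28438 the copy took 61.4% under ruxolitinib and 35.5% in controls, and for mt-Nd4l and Gm10222 it took 51.0% and 33.3%. For mt-Nd4 and Gm28439, which overlap over only part of the gene, the copy took 0.379% and 0.160%, and for mt-Co1 and Gm29216 it took 0.269% and 2.63%. With each gene summed with its copy before the test, 9 mitochondrial genes were higher and 2 lower, with 29.9% and 25.3% over all genes.

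Per kilobase of gene, mt-Co1 stood highest of all 37 mitochondrial genes under ruxolitinib, with a mean of 6666 CPM per kilobase. The length used includes bases shared with the copy, 876 of 1378 in mt-Nd4 and 483 of 1545 in mt-Co1. If reads from these bases were left out of the counts, the levels of both genes are too low. The places of mt-Nd4 and mt-Co1 in the orders given here are therefore uncertain. Among the 7 protein genes not wholly inside the copy mt-Co1 was followed by mt-Cytb at 3022, mt-Nd1 at 2555, mt-Nd2 at 1196, mt-Nd4 at 1141, mt-Nd6 at 1099.6 and mt-Nd5 at 492 CPM per kilobase. In controls the order of these 7 genes was mt-Nd1 at 1558, mt-Nd6 at 1542, mt-Cytb at 1149, mt-Co1 at 1129, mt-Nd2 at 623, mt-Nd4 at 371 and mt-Nd5 at 114 CPM per kilobase. Among the ruxolitinib pools mt-Nd2, mt-Nd4 and mt-Nd6 overlapped (1019 to 1339, 932 to 1322 and 971.5 to 1192 CPM per kilobase) and their order is not resolved, while mt-Co1 lay above mt-Cytb in every pool. Among the controls the ranges of mt-Nd6 and mt-Co1 overlapped each other and those of mt-Nd1 and mt-Cytb, while mt-Nd1 (1349 to 1664 CPM per kilobase) lay above mt-Cytb (892 to 1332) without overlap.

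As messengers counted together, the 13 protein genes took 2.26, 1.94 and 2.06% of the total count in ruxolitinib pools 1 to 3 and 0.769, 0.654 and 0.637% in control pools 4 to 6. The means were 2.08% ± 0.161 and 0.686% ± 0.0719 (SD, n = 3 each), a ratio of 3.04. Every ruxolitinib library lay above every control. Haemoglobin genes, at 118706 to 234048 CPM under ruxolitinib and 1838 to 2679 CPM in controls, enlarge the denominator, and without them the ratio was 3.70. All 37 genes together took 2.25% ± 0.273 against 0.818% ± 0.0580.

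The messengers did not change in one proportion, and their make-up differed between the groups. Over the 7 protein genes not wholly inside the copy, mt-Co1 took 51.5, 48.4 and 50.8% of their counts in ruxolitinib pools 1 to 3 and 33.6, 27.6 and 15.0% in control pools 4 to 6. The share of mt-Nd1 was 11.2, 12.8 and 11.9% against 21.5, 24.1 and 21.03%. The share of mt-Nd6 was 2.67, 2.92 and 2.79% against 6.004, 9.29 and 21.9%, and that of mt-Nd2 was 5.99, 6.32 and 5.86% against 7.46, 8.26 and 13.7%. These 4 shares did not overlap between groups, 1 higher and 3 lower, whereas those of mt-Cytb, mt-Nd4 and mt-Nd5 overlapped. Per kilobase of gene the share of mt-Nd5 also lay above the controls in every pool, at 3.02, 2.72 and 3.45% against 1.45, 1.35 and 2.42%. The shares sum to 100% in each library, so they are not independent of each other.

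**Figure D2:**
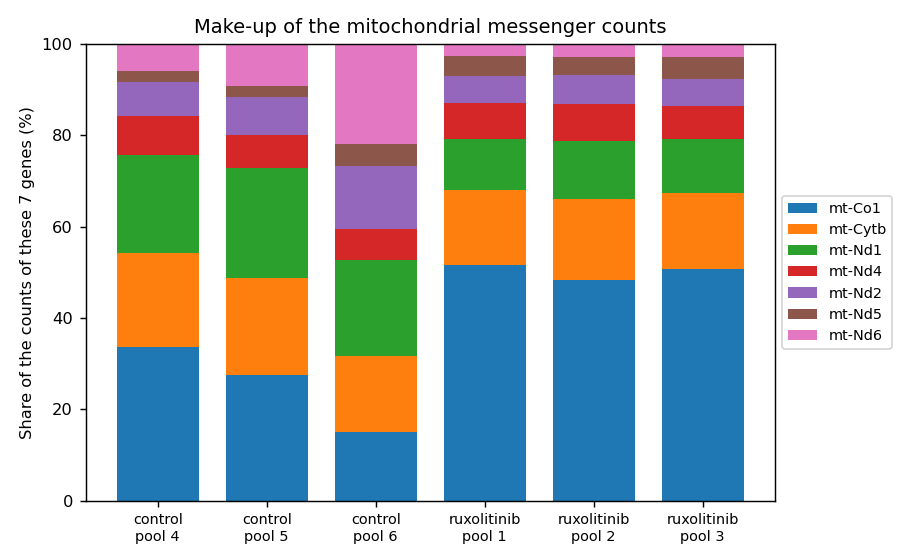
Share in percent of the counts of the 7 protein genes not wholly inside the chromosome 1 copy, 1 stacked bar per library summing to 100%. The 3 ruxolitinib bars are alike, with mt-Co1 at 48.4 to 51.5%, while the control bars range from 33.6% in pool 4 to 15.0% in pool 6, where mt-Nd6 takes 21.9%.

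The ruxolitinib pools were also closer to each other than the controls for each of the 7 genes. The highest pool was 1.20 to 1.42 times the lowest under ruxolitinib and 1.23 to 3.02 times the lowest in controls. Control pool 6 had the least mt-Co1 and the most mt-Nd6, mt-Nd2 and mt-Nd5 of the controls. Leaving it out gave a change of 0.04 for mt-Co3 and 0.10 for mt-Nd6, as above, and ended the call of mt-Nd1.

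**Figure D3:**
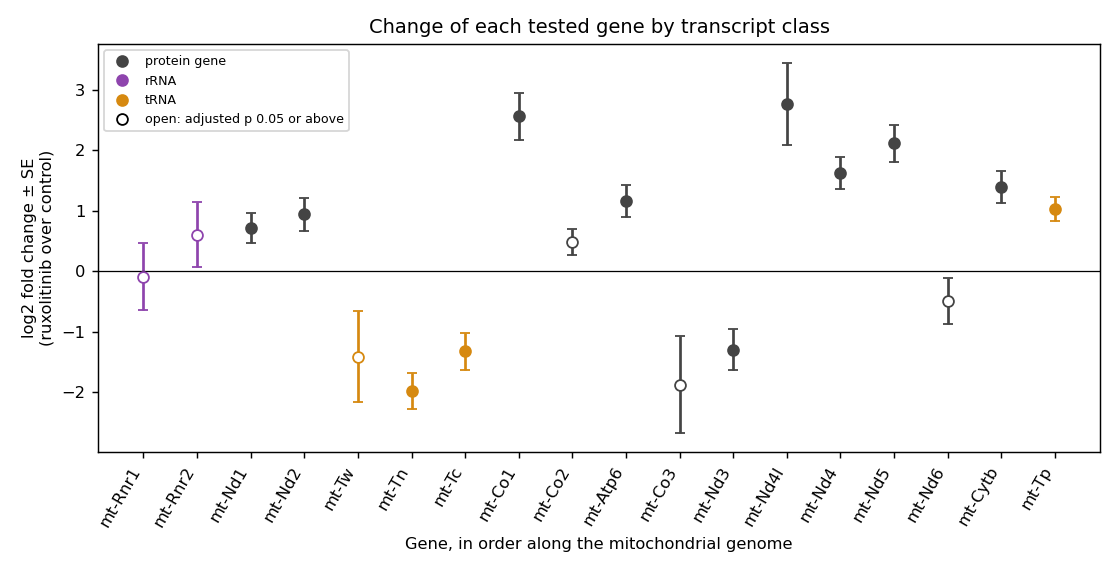
Log2 fold change of ruxolitinib over control with its SE for the 18 tested mitochondrial genes, in order along the genome and coloured by transcript class. Filled marks have an adjusted p under 0.05 in edgeR, and they lie above 0 for 8 protein genes and mt-Tp and below 0 for mt-Nd3, mt-Tn and mt-Tc, none of which was called lower with scaling to CD8 identity genes.

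The rRNAs of the mitochondrial ribosome, mt-Rnr1 (12S, MT 70 to 1024) and mt-Rnr2 (16S, MT 1094 to 2675), followed a different pattern from the messengers. The level of mt-Rnr1 was 966.9, 126 and 626 CPM in ruxolitinib pools 1 to 3 and 532, 685 and 608 CPM in control pools 4 to 6 (-0.09 ± 0.55, adjusted p = 0.903, edgeR). The level of mt-Rnr2 was 1758, 255 and 1049 CPM against 542, 677 and 795 CPM (0.60 ± 0.54, adjusted p = 0.363, edgeR). Ruxolitinib pool 2 stood lowest of all 6 libraries for both, and the spread within the group was 7.66 and 6.90 times. Without that pool the change was 0.39 for mt-Rnr1 and 1.06 for mt-Rnr2, the latter called (adjusted p = 0.0302, edgeR). With scaling to CD8 identity genes both were called higher, at 1.90 and 2.58. The protein genes together took 1.94% of the counts in pool 2, the lowest of the ruxolitinib pools (2.26% in pool 1 and 2.06% in pool 3) and above every control. The sources used here do not give whether rRNA was removed or poly(A) RNA selected before sequencing, and both affect the share of rRNA that is read.

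The ratio of rRNA to protein-gene counts was 0.117, 0.0187 and 0.0920 in ruxolitinib pools 1 to 3 and 0.143, 0.202 and 0.213 in control pools 4 to 6. It was lower in every ruxolitinib pool, by 1.64 on the log2 scale, and by 0.82 without pool 2. The ratio of mt-Rnr2 to mt-Rnr1 was 1.82, 2.02 and 1.68 against 1.02, 0.990 and 1.31, higher in every ruxolitinib pool, pool 2 included, with a difference of 0.74. The ratio of mt-Nd6 to the other protein genes was 0.0272, 0.0298 and 0.0285 against 0.0626, 0.1005 and 0.255, a difference of -2.04, and -1.48 without control pool 6. For the ratio of tRNA to protein-gene counts the values were 0.00221, 0.00260 and 0.00266 against 0.00792, 0.0113 and 0.00757, a difference of -1.82. Ratios within a library do not depend on its scaling. With 3 pools against 3 an exact two-sided permutation test cannot give p under 0.1, so none of these ratios can pass a threshold of 0.05.

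**Figure D4:**
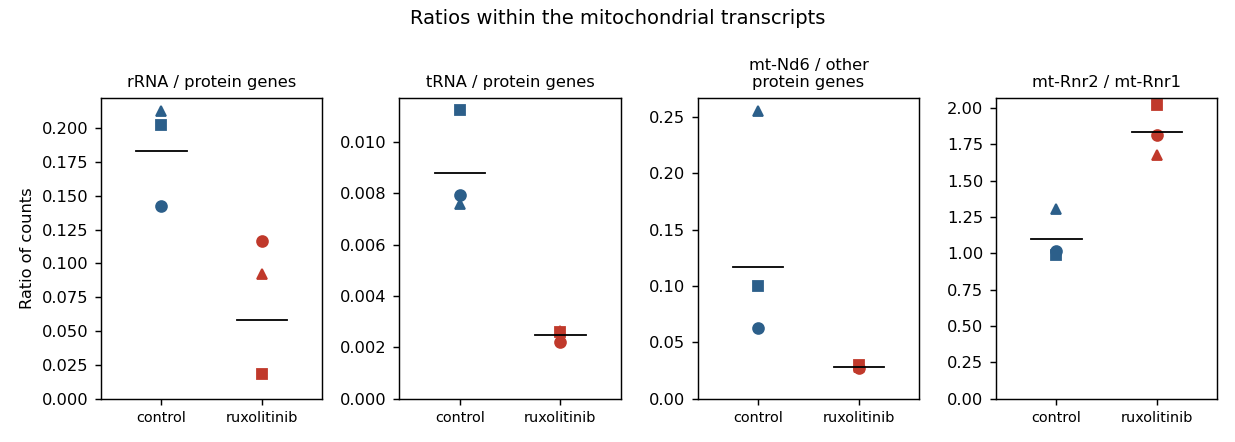
Ratios of counts within each library, with control pools in blue and ruxolitinib pools in red, circles for pools 4 and 1, squares for 5 and 2 and triangles for 6 and 3, and a line at each group's geometric mean. The axes start at 0 and differ between panels. The groups do not overlap in any of the 4 panels, and ruxolitinib pool 2 lies far below the other pools for rRNA to protein genes, at 0.0187.

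The tRNAs were thinly covered. Of 22 tRNA genes 8 had no count in any library, 6 had 1 to 10 counts in all and 8 had more, and the 18 untested genes reached at most 48 counts (mt-Tl1). The 8 tRNA genes of the minus strand held 5044 of the 5207 tRNA counts (96.9%), and the 14 of the plus strand held 163. As a share of all counts the tRNAs overlapped between groups, at 0.00499 to 0.00546% under ruxolitinib and 0.00482 to 0.00736% in controls.

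Of the tested tRNAs, mt-Tn was at 4.24, 5.93 and 5.37 CPM under ruxolitinib and 18.9, 27.4 and 15.2 CPM in controls (-1.98 ± 0.30, adjusted p = 0.000485, edgeR). The neighbouring mt-Tc was at 9.73, 7.22 and 9.67 CPM against 22.4, 29.9 and 14.5 CPM (-1.32 ± 0.30, adjusted p = 0.00452, edgeR). These genes, with their sequences printed above, are separated by 32 bases, in which the origin of light-strand replication is known to lie. At the other end of the genome mt-Tp was at 35.7, 37.1 and 30.3 CPM against 17.4, 15.96 and 16.9 CPM (1.04 ± 0.20, adjusted p = 0.00179, edgeR). None of these 3 genes overlapped between groups. With libraries scaled to CD8 identity genes mt-Tn was at -0.05 and mt-Tc at 0.64, neither called, and with scaling to mitochondrial housekeeping genes mt-Tc lost its call (-0.62, adjusted p = 0.104, edgeR).

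The only tested plus-strand tRNA, mt-Tw, gave -1.41 ± 0.75 (adjusted p = 0.137, edgeR) from 5 to 41 counts a library. As the use of strand in counting is not known here, RNA copied from the plus strand across the minus-strand tRNAs cannot be told apart from these tRNAs and their precursors.

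The nuclear genes of the respiratory chain were mostly lower. The 78 listed, called nuclear subunits below, include 4 of complex II, which has no mitochondrial subunit, and the inhibitor Atpif1. Of 78 nuclear respiratory chain genes 66 were lower, 1 was higher and 11 did not pass the test, with a median log2 change of -1.34, against 25.3% lower and 0.03 over all genes. With scaling to CD8 identity genes, under which the median of all genes moved by 1.94, 0 were lower and 12 higher, and with scaling to mitochondrial housekeeping genes 42 were lower and 5 higher. Lower were 33 of 36 genes of complex I, 2 of 4 of complex II, 6 of 9 of complex III, 11 of 12 of complex IV and 14 of 17 of complex V. The complex V subunit Atp5e was at 135, 186 and 181 CPM under ruxolitinib and 725, 896 and 1062.2 CPM in controls (-2.42 ± 0.26, adjusted p = 9.0e-05, edgeR). The complex I subunit Ndufc2 fell by 1.65 and the complex IV subunit Cox7a2 by 1.71 on the log2 scale. Atpif1, an inhibitor of ATP synthase, was the one that rose (1.23 ± 0.36, adjusted p = 0.0159, edgeR).

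Set against each other within a library, the 13 mitochondrial protein genes had 303, 187 and 196% of the counts of the nuclear subunits in ruxolitinib pools 1 to 3 and 39.0, 30.5 and 29.0% in control pools 4 to 6. The mean ratio was 6.96 times higher, and the libraries did not overlap. Change also went with gene length over all genes tested, with median log2 changes of -0.71, -0.20, 0.01, 0.21 and 0.46 from the shortest to the longest of 5 equal bins of gene length. The 64 nuclear subunits in the 2 shortest bins had a median of -1.33 against -0.40 for the other genes there, and the 14 in longer bins had -1.36. The nuclear subunits had a median length of 1688 bases, inside the shortest bin (12 to 1956 bases, median change -0.71). All mitochondrial genes, the longest being mt-Nd5 at 1824 bases, also fall in that bin. The part of gene length in these changes was not tested.

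**Figure D5:**
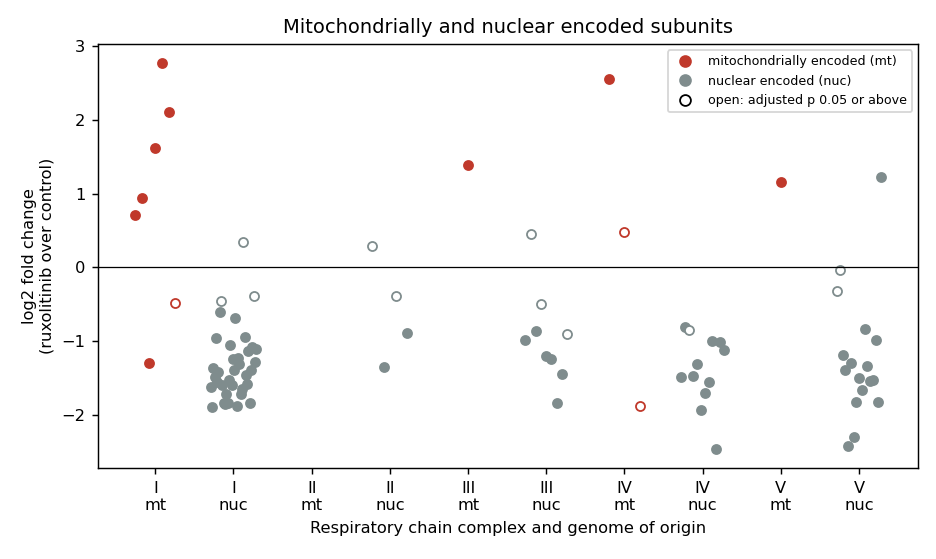
Log2 fold change of ruxolitinib over control for the tested subunits of respiratory complexes I to V, red for genes of the mitochondrial genome and grey for nuclear genes, with open marks for an adjusted p of 0.05 or above in edgeR. Points are spread sideways for sight. In complexes I, IV and V nearly all nuclear subunits lie below 0, with medians near -1.4. Of the mitochondrial subunits, mt-Nd4, mt-Nd4l, mt-Nd5, mt-Co1, mt-Atp6 and, in complex III, mt-Cytb lie above 1. The marks of mt-Nd1, mt-Nd2 and mt-Co2 lie between 0 and 1, and those of mt-Nd3, mt-Nd6 and mt-Co3 below 0. Complex II has no mitochondrial subunit. With scaling to CD8 identity genes 0 nuclear subunits were lower and 12 higher.

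The nuclear genes that copy, cut, decay and translate mitochondrial RNA were mixed. Of 75 listed genes 74 were tested, 5 were higher and 24 lower, with a median of -0.36, beside 29.9% higher and 25.3% lower over all genes. With scaling to CD8 identity genes 46 were higher and 0 lower, beside 69.7% and 0.527% over all genes, and with housekeeping scaling 20 and 5, beside 48.4% and 9.91%. Among 8 transcription genes 3 were lower and 0 higher. Tfam, which packages and activates the genome, was at 26.2, 25.7 and 25.5 CPM under ruxolitinib and 70.9, 62.1 and 74.6 CPM in controls (-1.42 ± 0.19, adjusted p = 0.000246, edgeR). With scaling to CD8 identity genes its change was 0.50 (adjusted p = 0.418, edgeR), and with housekeeping scaling -0.74 (adjusted p = 0.0111, edgeR). The polymerase Polrmt was at 0.06 ± 0.32 (adjusted p = 0.883, edgeR) and its initiation factor Tfb2m at -0.25 ± 0.31 (adjusted p = 0.526, edgeR). The termination factor family members Mterf1a and Mterf2 fell by 1.84 and 1.17 on the log2 scale.

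Among 13 genes of mitochondrial DNA replication and its nucleotide supply 3 were higher and 3 lower, beside 29.9% higher and 25.3% lower over all genes. The polymerase Polg rose by 1.08, the thymidine kinase Tk2 by 1.63 and the nucleotide carrier Slc25a36 by 0.71, while the ribonuclease Rnaseh1, the carrier Slc25a33 and the single-strand binding protein Ssbp1 fell by 1.26, 1.17 and 0.82 on the log2 scale. Of 14 RNA processing genes 1 was higher and 6 lower. Trmt10c and Hsd17b10, subunits of the enzyme that cuts the 5′ ends of mitochondrial tRNAs, fell by 0.93 and 0.76. Fastkd3, Fastkd5 and Ptcd2 fell by 1.45, 1.16 and 0.81, and Ptcd1 rose by 0.81.

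The counts of the next lists stand beside the same 29.9% higher and 25.3% lower over all genes. Of 7 tested genes of messenger stability and decay 1 was lower, Pnpt1, a ribonuclease (-0.65). Lrpprc, which holds and stabilises mitochondrial messengers, was at -0.71 ± 0.31 (adjusted p = 0.0763, edgeR), and its partner Slirp was not tested. Of 19 genes that modify tRNA and rRNA 1 was higher and 7 were lower. The higher one was the rRNA methyltransferase Mrm1 (0.80 ± 0.31, adjusted p = 0.0486, edgeR). Its pools overlapped between groups, at 22.3, 37.8 and 18.4 CPM under ruxolitinib and 18.7, 11.9 and 14.3 CPM in controls. Among the lower ones were Mettl17 (-1.36), Pus1 (-1.29), Trmt5 (-1.37), Mrm3 (-1.32) and Mrm2 (-1.21). Of 13 translation factors 0 were higher and 4 lower, with the smallest p for the elongation factor Tsfm at 14.5, 20.2 and 18.2 CPM against 65.3, 83.8 and 108.6 CPM (-2.28 ± 0.25, adjusted p = 0.000101, edgeR), with Mrrf at -0.88, Mtfmt at -0.87 and Guf1 at -0.88. Among the regulators of mitochondrial genes, Gabpb1 was lower (-0.67), Ppargc1b was at 0.54 ± 0.61 (adjusted p = 0.468, edgeR) and Ppargc1a was not tested.

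The nuclear genes whose log2 CPM over the 6 libraries ran most like that of the summed mitochondrial protein genes, among 11939 compared, were Hspg2, Apobec1 and Siglec1, with Pearson r of 0.9998, 0.9997 and 0.9996. Siglec1 marks macrophages. The correlation is over 6 libraries that fall into 2 groups and share depth and scaling, so it mainly repeats the difference between groups and is given as a description. Their log2 changes were 6.09, 2.64 and 4.32.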

How the data were processed

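Gene counts of 6 libraries were analysed. The table holds raw counts per gene, deposited by the authors without normalisation. Per the labels' protocols, total RNA was isolated with the RNeasy Mini kit, whose columns keep mainly RNA longer than tRNAs, and libraries were made with NEBNext Ultra II. The submitters' processing notes name HISAT2 2.0.5 and the genome mm10. The sources used here do not give the counting program, its use of strand or its treatment of reads with several matches.

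The group difference was fitted in R 4.3.3 with the robust quasi-likelihood model of edgeR 4.0.16, after filterByExpr and TMM scaling and with no other covariate. P-values were Benjamini-Hochberg adjusted over 13480 genes, with a threshold of 0.05. Shares and ratios are given per pool, with no p for sums over genes. Alternatives were other normalisations (also without mitochondrial or haemoglobin genes, or to the geometric mean of 17 CD8 identity or 22 mitochondrial housekeeping genes), other filters, DESeq2 1.42.0, limma-voom (limma 3.58.1) with and without quality weights, a 2-fold minimum, a fit on protein-coding and mitochondrial genes only, and leaving out each pool. Sums with the nuclear copy were added after the data were seen. Likeness to other genes used log2(CPM + 0.5). On simulated counts for this comparison (13214 genes), the test called 22 of 91 genes changed 2-fold, 82 of 95 changed 4-fold and 6 of 13028 unchanged. The share of changed genes was far smaller there than the 55.2% called in the data. As the adjustment of p depends on that share, these rates do not carry over to the data.

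The members and lists were chosen with earlier results of these data known. Named were all protein genes, rRNAs and tested tRNAs, fixed regulators, up to 5 called genes with the smallest p in each direction of each expression list, and up to 2 of each respiratory complex. The result of 1 marker list is not reported here.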

Additional observations from a re-analysis of the deposited data

How the results depend on the processing

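No paired analysis was possible because ruxolitinib pools (1 to 3) and control pools (4 to 6) share no number. Over 21 alternatives the number of mitochondrial genes called higher (9) ranged from 4 to 13, with 4 under a 2-fold minimum, and the number called lower (3) from 0 to 5. Scaling to CD8 identity genes gave 0 lower mitochondrial genes, 46 higher and 0 lower nuclear genes of mitochondrial expression, 12 higher and 0 lower respiratory subunits, and 9389 higher and 71 lower of all genes. It moved the median of all genes by 1.94, scaling to mitochondrial housekeeping genes by 0.69 and no filter by 0.295 on the log2 scale. Scaling to housekeeping genes gave 1 lower mitochondrial gene, 20 higher and 5 lower expression genes, 5 higher and 42 lower subunits, and 6519 higher and 1336 lower of all genes. A 2-fold minimum gave 1 lower mitochondrial gene, 1 higher and 3 lower expression genes, 0 higher and 30 lower subunits, and 2379 higher and 1097 lower of all genes. Quality weights gave 8 higher expression genes.

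Leaving out single pools gave 7 to 9 higher and 3 to 5 lower mitochondrial genes (5 without control pool 4), 2 to 6 higher and 15 to 24 lower expression genes (15 without ruxolitinib pool 1), 0 to 1 higher and 61 to 71 lower subunits, and 3444 to 4482 higher and 2306 to 3831 lower of all genes. Changes that reversed were those of mt-Rnr1 (1.90 with CD8 scaling, 0.65 with housekeeping scaling, -0.64 to 0.39 without single pools, above 0 without ruxolitinib pool 2 or control pool 5, where it was 0.026), mt-Rnr2 (-0.15 with quality weights), mt-Tw (0.19), mt-Tc (0.64) and mt-Nd3 (0.63) with CD8 scaling, mt-Co3 (0.31 with quality weights, -2.40 to 0.039 without single pools, the last without control pool 6) and mt-Nd6 (1.39 with CD8 scaling, 0.17 with housekeeping scaling, 0.0084 with quality weights, -0.78 to 0.096 without single pools, the last without control pool 6). The log2 ratio of the rRNA share ranged from -0.16 (without ruxolitinib pool 1) to 0.85 when single pools were left out. It was 0.67 without haemoglobin genes and 1.67 relative to nuclear subunits. That of the tRNA share was 0.045 without haemoglobin genes and 0.94 relative to nuclear subunits. The log2 ratio of the share of mt-Cytb was 0.11 per kilobase, and that of mt-Nd4 was -0.027 without control pool 6 and at most 0.16 without another pool. The cause of these changes was not tested. Counts under 100 in mt-Nd4l and mt-Tw leave a large counting error, which covers reads and not molecules.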
